A study of Arabidopsis thaliana with 7 samples.

Results

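The genes described here are the nuclear genes for the cores of photosystems I and II, the photosystem I antenna (LHCA), the carriers between and after the photosystems, and the plastid ATP synthase, without the photosystem II antenna. The 35 members were taken by locus identifier from a table of 21184 genes, and all 35 were found there. RNA sequencing measured polyadenylated transcripts of whole Arabidopsis thaliana seedlings of 2 genotypes. The wild type, Col-0, has 4 libraries (replicates 1 to 4). The mutant, tt4-11, which the labels give as a null line for chalcone synthase, has 3 libraries here (replicates 2 to 4), while the extraction text names 4. All seedlings were 5 days old, grew at 22 °C in 24-hour light of about 100 µE on agar medium with 2% sucrose, and were frozen whole in aliquots. Only 1 mutant line was studied. Lists of values below run in replicate order, Col-0 1 to 4 and tt4-11 2 to 4.

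In the thylakoid membrane photosystem II draws electrons from water, the cytochrome b6f complex and plastocyanin pass them on, and photosystem I hands them to ferredoxin, from which a reductase makes NADPH. The proton gradient built on the way drives ATP synthase. The plastid genome codes for most reaction-centre proteins, and the nucleus supplies the subunits that dock carriers, hold the antenna or stabilise the water-splitting site, along with the whole LHCA antenna. In seedlings these nuclear genes are known to be switched on by light and by signals from the developing chloroplast, and many have a daily rhythm.

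Levels are scaled reads, that is, read counts that the authors scaled to a common depth, summed over the transcript models of a gene. The recovered reads number 2021368 to 2205449 per library. Changes are given as tt4-11 minus Col-0 on the log2(scaled reads + 1) scale, each with a standard error (SE), and the added 1 shrinks the change of genes with few reads. A gene was called at an adjusted p under 0.05 from limma, two-sided, with Benjamini-Hochberg adjustment over all 13301 genes tested, and every adjusted p below comes from that fit unless another is named. The labels do not say that replicates were separate cultures, so the p-values cover only the scatter among these 7 libraries, which may be technical. The mutated gene, TT4, stood at 2464 to 3148 scaled reads in Col-0 and at 54.9 to 96.7 in tt4-11, which fits the labels. Whole seedlings hold root, green tissue and remains of the seed. Of all genes tested 7.07% were called higher and 6.55% lower, and the marker lists given next are small. Of 7 root markers tested 0 were called, with 5 negative changes and 2 positive ones. Their list summed to 12284 to 13471 in Col-0 and 10162 to 13183 in tt4-11, most of it from PYK10. PYK10 averaged 12364 in Col-0 and 11346 in tt4-11, so the sum says little about the other root markers. EXP7 (53.0% of Col-0, limma adjusted p = 0.0691) and COBL9 (68.6%, limma adjusted p = 0.207) were lower in tt4-11 without overlap, on 7 to 23 reads. Of all genes tested 12.9% were lower without overlap. The 2 positive changes were in SCR (120% of Col-0, limma adjusted p = 0.147) and PHT1.1 (104%, limma adjusted p = 0.937), both with overlap. The part of root RNA in the results below was not tested. Green tissue genes outside the photosystems summed to 19699 to 25412 in Col-0 and 21467 to 24204 in tt4-11, with 1 of 9 higher and 1 lower. Among them RCA (8.60 to 34.6 over the 7 libraries), GLO1 (22.9 to 50.6) and FBA2 (0 to 2.91, not tested) were low. These have more than 1 annotated model, which limits them as levels. Seed markers summed to 57.0 to 483 in Col-0 and 231 to 1332 in tt4-11, with 5 of 6 tested higher, and the 4 not tested ran from 0 to 1.87 (CRC), 0 to 2.00 (EM6), 0 to 4.82 (CRA1) and 1.92 to 23.0 (PER1) over the 7 libraries. CRC and CRA1 have more than 1 annotated model, which limits them as levels. The part of seed RNA in the results below was not tested, and in whole seedlings fewer cells of a type and less RNA per cell cannot be told apart.

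Among the 35 members, 31 had enough reads to be tested and 9 were called, against 13.6% of all genes tested. In tt4-11, 3 of the 31 were higher (9.68%, against 7.07% of all genes tested) and 6 were lower (19.4%, against 6.55% of all genes tested), and 22 were not called. LHCA4, PSAK and ATPC1 were higher. PSAF, PSAE2, PETE2, PSBO1, PSAD1 and FD2 were lower. The median change of the members tested was -0.11, beside -0.01 for all genes tested. Called changes ran from 1.31-fold (FD2) to 1.72-fold (LHCA4). Every tt4-11 library lay above every Col-0 library in 5 members (16.1%, against 13.7% of all genes tested) and below in 9 (29.0%, against 12.9%). The summed level of all 35 genes overlapped between groups. It was 40354 ± 1631 (SD, n = 4) in the wild type, against 39082 ± 3864 (SD, n = 3) in the mutant, or 1.97% and 1.92% of all scaled reads. The counts depended on the settings. With a trend of change on transcript length removed 5 members were higher and 4 lower, and with length and GC content trends removed 9 were higher and 2 lower. Without tt4-11 replicate 3 there were 4 higher and 2 lower, without tt4-11 replicate 2 there were 3 and 3, with edgeR 5 and 6, and at an adjusted p of 0.01 there were 2 and 2.

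Several members cannot be read as levels. Of the 35, 12 have more than 1 annotated transcript model, and among these 8 were tested and 0 called, against 13.6% of all genes tested. Not all of the 12 were low: PSAL averaged 2504 scaled reads in Col-0 and PSBQ2 806. The 4 members not tested are all of this kind: LHCA1 stood at 0 to 2.88, LHCA3 at 2.88 to 6.55, PETC at 0 to 3.88 and PSBQ1 at 0.936 to 2.87 scaled reads. What part counting by model has in these low values was not tested. In a library at 0, up to 3 reads could have gone unseen, by counting error alone. PSBP1, PSBS and PSAN, with 5 to 85 reads per library, were tested on few reads. All 9 called members have 1 annotated model. Annotated genes on the opposite strand overlap part of PSAG (55.8% of its 100-base windows), PSAH1 (47.0%), PSAE1 (24.0%), PSAH2 (12.4%) and FNR1 (6.52%). The libraries were strand-specific, but the strand setting of the counting is not given in the sources used here, so values of these 5 genes are less certain. No member had a 100-base window in common with its paralog.

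**Figure D1:**
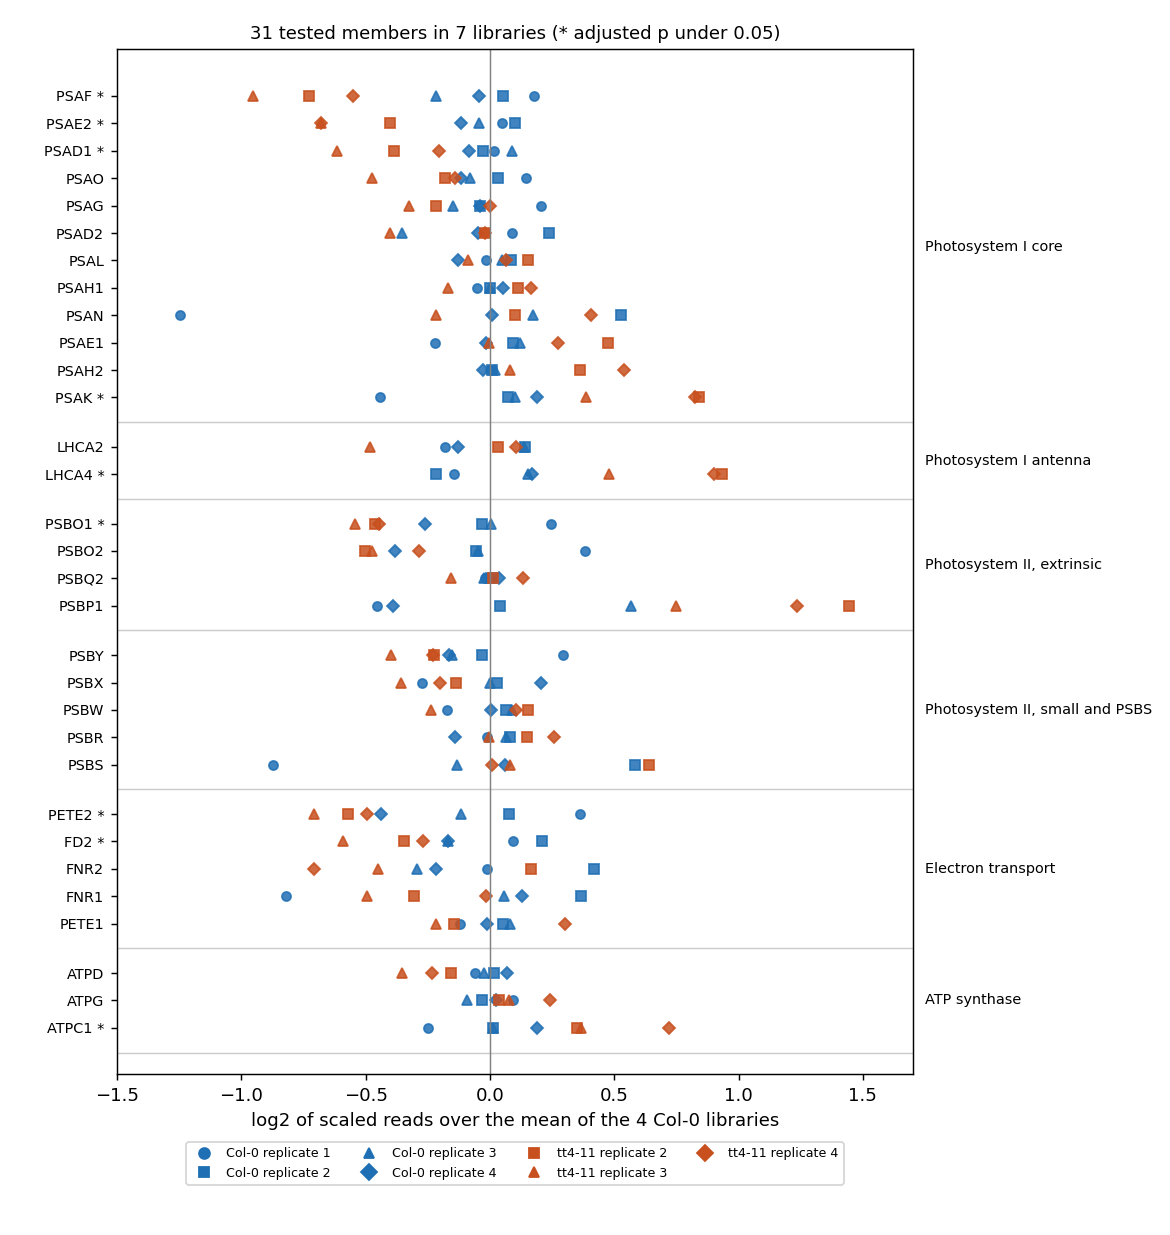
Each row is 1 of the 31 tested members, grouped by complex, and each point is 1 library: the log2 of its scaled reads over the mean of the 4 Col-0 libraries (blue Col-0, orange tt4-11, symbol by replicate number). Asterisks mark the 9 called members. The tt4-11 points of PSAF, PSAE2 and PSAD1 lie left of all Col-0 points and those of PSAK, LHCA4 and ATPC1 right of them, and tt4-11 replicate 3 is the leftmost orange point in most rows.

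In the photosystem I core, 1 of 12 genes tested was higher, 3 were lower and 8 were not called. Of all genes tested 7.07% were higher and 6.55% lower, and the counts for this and the other complexes below rest on few genes. PSAF (AT1G31330, chr1:11214676-11216141, minus strand), which helps plastocyanin dock on the lumen side, had the largest fall of the members tested. Its values, with gene positions here and below from TAIR10.1, were 1404, 1286, 1069 and 1204 in the wild type and 750, 641 and 847 in tt4-11. All 3 tt4-11 libraries were below the lowest Col-0 library, and the mean was 60.1% of Col-0 (1241 ± 141, SD, n = 4, and 746 ± 103, SD, n = 3). The difference was -0.74 (SE 0.12, limma adjusted p = 8.02e-04).

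PSAD and PSAE form the stromal ridge to which ferredoxin binds, and each is coded by a pair of genes. PSAE2 (AT2G20260, chr2:8736734-8737767, plus strand) stood at 306, 317, 287 and 273 in the wild type and at 224, 185 and 185 in tt4-11. Again the groups did not overlap, and PSAE2 fell by 0.58 on the log2 scale (SE 0.11, limma adjusted p = 0.00382). PSAE1 went the other way without being called, with 487, 604, 616 and 561 in Col-0 and 788, 566 and 685 in tt4-11 (0.25, SE 0.12, limma adjusted p = 0.177). PSAE1 was called higher with the length trend removed (0.39, limma adjusted p = 0.0457), and PSAE2 lost its call with length and GC trends removed (-0.11, limma adjusted p = 0.596). PSAD1 (AT4G02770, chr4:1229031-1230164, minus strand) stood at 576, 558, 605 and 537 in Col-0 and at 435, 372 and 494 in tt4-11. It fell by 0.40 (SE 0.11, limma adjusted p = 0.0242), and PSAD2 was not called (156 ± 26.0, SD, n = 4, against 142 ± 21.0, SD, n = 3, change -0.13). The call of PSAD1 was lost without Col-0 replicate 3 (limma adjusted p = 0.0641) or tt4-11 replicate 2 (0.0718) or 3 (0.152), and with the length trend removed (0.0947).

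PSAK (AT1G30380, chr1:10722183-10723247, plus strand), a subunit on the antenna side of the core, was the called rise. It stood at 976, 1394, 1425 and 1513 in the wild type and at 2376, 1734 and 2349 in tt4-11. Col-0 replicate 1 was the low library of its group, and without it the change was 0.56 in place of 0.70 (SE 0.15 with all libraries, limma adjusted p = 0.00534 with and 0.00298 without it). PSAG, also at the antenna side, was not called (-0.17, SE 0.11). PSAK over PSAF, a ratio chosen after the values were seen, ran from 0.695 to 1.33 in Col-0 and from 2.71 to 3.17 in tt4-11. The ratio pairs a called rise with a called fall, so its separation follows from that choice.

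PSAH, PSAL and PSAO lie where the core binds mobile photosystem II antenna during state transitions. PSAH2 stood at 882, 888, 895 and 865 in Col-0 and at 1133, 934 and 1283 in tt4-11, without overlap, but just missed the threshold (0.33, SE 0.11, limma adjusted p = 0.0537). It passed with edgeR (adjusted p = 0.0429) and DESeq2 (0.0380) on the recovered reads. PSAH1 (0.04), PSAL (0.04) and PSAO (-0.26, limma adjusted p = 0.115) were not called, although the 3 tt4-11 libraries of PSAO (1302 to 1638) lay below its 4 Col-0 libraries (1669 to 2001). PSAL had the most scaled reads of the core genes, at 2480, 2654, 2592 and 2291 in Col-0 and 2781, 2355 and 2620 in tt4-11. PSAL passed as higher with length and GC trends removed (0.33, limma adjusted p = 0.0348). Per kilobase of transcript, PSAG was the highest of the core genes, at 3246 scaled reads per kilobase in Col-0, ahead of PSAL at 2329 and PSAO at 2207. PSAN, a lumenal subunit, ran from 23.9 to 81.7 in Col-0, with its low point in replicate 1, and from 48.8 to 75.1 in tt4-11.

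The sequences just before these genes are shown for 4 members, the largest fall (PSAF) and the 3 called rises (PSAK, LHCA4 and ATPC1), since none of these windows overlaps another annotated gene. Each is the 250 bases before the annotated start, read 5′ to 3′ on the gene's strand from the RefSeq TAIR10.1 assembly, which may not be the build the authors used: chr1:11216142-11216391 (minus strand) for PSAF, chr1:10721933-10722182 (plus strand) for PSAK, chr3:17495034-17495283 (minus strand) for LHCA4 and chr4:2352026-2352275 (minus strand) for ATPC1. Capitals mark matches, on either strand, to 5 motifs known from light- and clock-regulated promoters.
PSAF: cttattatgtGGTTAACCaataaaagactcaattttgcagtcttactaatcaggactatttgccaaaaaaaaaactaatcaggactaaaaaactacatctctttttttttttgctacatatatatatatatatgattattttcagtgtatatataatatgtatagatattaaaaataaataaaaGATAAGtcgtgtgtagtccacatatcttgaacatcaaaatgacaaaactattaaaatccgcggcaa
PSAK: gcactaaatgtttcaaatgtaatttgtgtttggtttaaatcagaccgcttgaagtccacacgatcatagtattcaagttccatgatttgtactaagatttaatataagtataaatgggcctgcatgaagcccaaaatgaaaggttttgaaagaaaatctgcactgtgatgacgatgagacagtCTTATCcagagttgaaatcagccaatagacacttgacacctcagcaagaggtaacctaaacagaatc
LHCA4: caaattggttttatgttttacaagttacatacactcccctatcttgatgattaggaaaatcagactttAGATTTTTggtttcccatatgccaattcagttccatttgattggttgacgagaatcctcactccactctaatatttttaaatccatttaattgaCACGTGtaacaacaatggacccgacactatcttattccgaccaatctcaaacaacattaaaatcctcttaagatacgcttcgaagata
ATPC1: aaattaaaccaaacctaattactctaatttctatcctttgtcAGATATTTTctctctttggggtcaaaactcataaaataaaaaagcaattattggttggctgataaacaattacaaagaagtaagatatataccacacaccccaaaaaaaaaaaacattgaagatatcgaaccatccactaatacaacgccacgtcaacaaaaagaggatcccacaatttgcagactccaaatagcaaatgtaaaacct
In capitals, PSAF carries an I-box (GATAAG) 66 to 61 bases before the start and, farther out, an overlapping pair of GT1 boxes (GGTTAA) on opposite strands. PSAK carries an I-box on the other strand, 67 to 62 bases before the start. LHCA4 carries a G-box (CACGTG), 88 to 83 bases before the start, and a CCA1-binding site (AAAAATCT) on the other strand. ATPC1 holds the evening element (AAAATATCT) on the other strand, 208 to 200 bases before its start. Over all 35 members the I-box stood in 10 windows (28.6%, against 12.3% of 27443 protein-coding genes), the G-box in 6 (17.1%, against 6.49%), the GT1 box in 6 (17.1%, against 14.6%), the CCA1-binding site in 3 (8.57%, against 6.69%) and the evening element in 1 (2.86%, against 2.36%). Called members with an I-box were PSAD1, PSAF and PETE2, which fell, and PSAK, which rose. Those with a G-box were PSAE2, which fell, and LHCA4, which rose. A match describes letters in a window and not a working site.

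The LHCA proteins form the antenna belt of photosystem I. Here 2 of 4 genes could be tested, of which 1 rose and 1 was not called. LHCA4 (AT3G47470, chr3:17493343-17495033, minus strand) stood at 1357, 1290, 1666 and 1687 in the wild type and at 2861, 2088 and 2800 in tt4-11. Every tt4-11 library was above every Col-0 library, the mean was 172% of Col-0, and the difference was 0.78 (SE 0.13, limma adjusted p = 0.00111). LHCA2 did not separate the groups, with 1149, 1434, 1433 and 1192 in Col-0 and 1332, 933 and 1399 in tt4-11 (-0.11, SE 0.13, limma adjusted p = 0.637). LHCA4 over LHCA2, a ratio chosen after the values were seen, was 1.16 ± 0.211 (SD, n = 4) in the wild type, against 2.13 ± 0.120 (SD, n = 3) in the mutant.

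The extrinsic proteins of photosystem II shield the manganese cluster that splits water. Of 4 genes tested 0 rose and 1 fell. PSBO1 (AT5G66570, chr5:26568572-26570461, plus strand), the main manganese-stabilising protein gene and the member with the most scaled reads in Col-0, stood at 5870, 4836, 4969 and 4130 in the wild type and at 3598, 3398 and 3632 in tt4-11. Its groups did not overlap, and it fell by 0.47 (SE 0.11, limma adjusted p = 0.0119), a call that was lost without tt4-11 replicate 3 (-0.44, limma adjusted p = 0.0569) and with length and GC trends removed (-0.20, limma adjusted p = 0.167). Its paralog PSBO2 stood at 1966, 1452, 1459 and 1156 in Col-0 and at 1064, 1085 and 1239 in tt4-11. PSBO2 overlapped only through Col-0 replicate 4 and was not called by limma (-0.39, SE 0.14, adjusted p = 0.0703), but passed with DESeq2 on the recovered reads (-0.41, adjusted p = 0.0442). PSBQ2 was at the same level in both groups (806 ± 15.6, SD, n = 4, and 807 ± 80.4, SD, n = 3, SE of the change 0.10 on the log2 scale). PSBP1, at 4.78 to 9.70 in Col-0 and 11.0 to 17.8 in tt4-11, gave 1.08 (SE 0.36, limma adjusted p = 0.0579) on 5 to 19 reads.

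Among the small intrinsic subunits of photosystem II and PSBS, the sensor of lumen acidity in photoprotection, 0 of 5 rose and 0 fell by limma. At an unadjusted p under 0.05 only PSBY, which had the most scaled reads of these 5, was lower. It stood at 2147, 1713, 1574 and 1560 in Col-0 and at 1495, 1326 and 1492 in tt4-11 (-0.27, SE 0.12, limma adjusted p = 0.126). The tt4-11 values lay just under the lowest Col-0 values. edgeR and DESeq2 on the recovered reads called 0 of the 5 as well. PSBR (0.14), PSBW (0.01) and PSBX (-0.22) had SEs of 0.10 to 0.11. PSBX passed as lower without Col-0 replicate 1 (-0.31, limma adjusted p = 0.0427) but gave 0.08 with length and GC trends removed. PSBR passed as higher with those trends removed (0.41, limma adjusted p = 0.0116). PSBS, on 11 to 32 reads, gave 0.31 (SE 0.31).

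Among the electron carriers, 0 of 5 genes tested rose and 2 fell (median change -0.30). PETE2 (AT1G20340, chr1:7042046-7043392, minus strand), the main plastocyanin gene, stood at 3681, 3024, 2643 and 2117 in the wild type and at 1928, 1754 and 2035 in tt4-11. The wide Col-0 range came down close to the tt4-11 values, with Col-0 replicate 4 only slightly above tt4-11 replicate 4. PETE2 fell by 0.56 (SE 0.14, limma adjusted p = 0.0170), by 0.43 without Col-0 replicate 1 (0.0189), and lost its call without tt4-11 replicate 2 (0.0548) or 3 (0.0824). FD2 (AT1G60950, chr1:22444307-22445291, plus strand), the main leaf ferredoxin gene, stood at 2056, 2233, 1715 and 1715 in Col-0 and at 1517, 1283 and 1601 in tt4-11, again without overlap. It fell by 0.39 (SE 0.12, limma adjusted p = 0.0344). Its call was lost without Col-0 replicate 2 (0.0922), tt4-11 replicate 2 (0.0766) or tt4-11 replicate 3 (0.178), and with the length trend removed (0.143). PETE1 stood at 126 to 145 in Col-0 and 118 to 169 in tt4-11 (-0.02, and 0.09 with the length trend removed). The ferredoxin-NADP reductase genes FNR1 (-0.20, SE 0.21) and FNR2 (-0.30, SE 0.20) were not called. FNR1 was low in Col-0 replicate 1 (97.4, against 179 to 222 in the other Col-0 libraries) and passed as lower without it (-0.45, limma adjusted p = 0.0371).

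Of the 3 ATP synthase genes 1 rose and 0 fell. ATPC1 (AT4G04640, chr4:2350498-2352025, minus strand), the gamma subunit through which thioredoxin regulates the enzyme, stood at 2798, 3351, 3356 and 3793 in the wild type and at 4238, 4286 and 5476 in tt4-11. Its groups did not overlap and the difference was 0.49 (SE 0.12, limma adjusted p = 0.0143), a call that was lost without tt4-11 replicate 4, the highest library (0.37, limma adjusted p = 0.0913). ATPD, the delta subunit, leaned the other way without being called: 1277, 1346, 1309 and 1396 in Col-0 against 1196, 1041 and 1133 in tt4-11 (-0.25, SE 0.09, limma adjusted p = 0.0889). ATPG, a subunit of the membrane stalk, gave 0.12 (SE 0.10) and passed as higher with length and GC trends removed (0.31, limma adjusted p = 0.0375). The changes of the 3 genes did not have 1 sign.

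Summed over its members, each complex showed the weight of its abundant genes, and these sums were not tested because the members were chosen with results known. The photosystem I core summed to 12843 ± 343 (SD, n = 4) in the wild type, against 12804 ± 1507 (SD, n = 3) in the mutant, the rises and falls within it nearly balancing. The antenna genes stood at 136% of Col-0 and overlapped through tt4-11 replicate 3. LHCA4 was 53.4% of their Col-0 sum, LHCA2 stood at 93.8% of Col-0, and LHCA1 and LHCA3 added almost nothing. The extrinsic photosystem II genes stood at 75.6% of Col-0 (7273 ± 1037 against 5495 ± 277) without overlap, 68.1% of the Col-0 sum being PSBO1. Weighting genes equally turned that direction, with a mean log2 change of 0.06 over the 5 extrinsic genes against -0.40 from the sums. That mean includes PSBP1 (1.08, on 5 to 19 reads) and PSBQ1, which was not tested. PSBO1 gave -0.47, PSBO2 -0.39 and PSBQ2 -0.00. The small photosystem II genes stood at 94.1%. The electron carriers stood at 71.8% (5214 ± 848 against 3742 ± 351) without overlap. The 2 called genes, PETE2 (55.0% of the Col-0 sum) and FD2 (1930 in Col-0), made up most of it. FNR1 (172 in Col-0), PETE1 (137), FNR2 (107) and PETC (2.19) added little. The ATP synthase genes stood at 119%, also without overlap, 48.2% of the Col-0 sum being ATPC1. ATPC1 stood at 140% of Col-0, ATPG at 109% and ATPD at 84.3%, so the sum does not describe each gene. The ratio of the photosystem I core sum to the photosystem II sum, which was not among the planned results, ran from 0.934 to 1.11 in Col-0. In tt4-11 it ran from 1.14 to 1.26, so the order of the groups was complete. The gap between Col-0 replicate 4 and tt4-11 replicate 3 was small. Its photosystem I part stood at 99.7% of Col-0 and its photosystem II part at 83.4%. PSBO1, which stood at 71.6% of Col-0, made up 39.3% of the photosystem II part in Col-0. PSBP1 (6.55 in Col-0), PSBQ1 (1.45) and PSBS (19.2) added almost nothing to it.

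**Figure D2:**
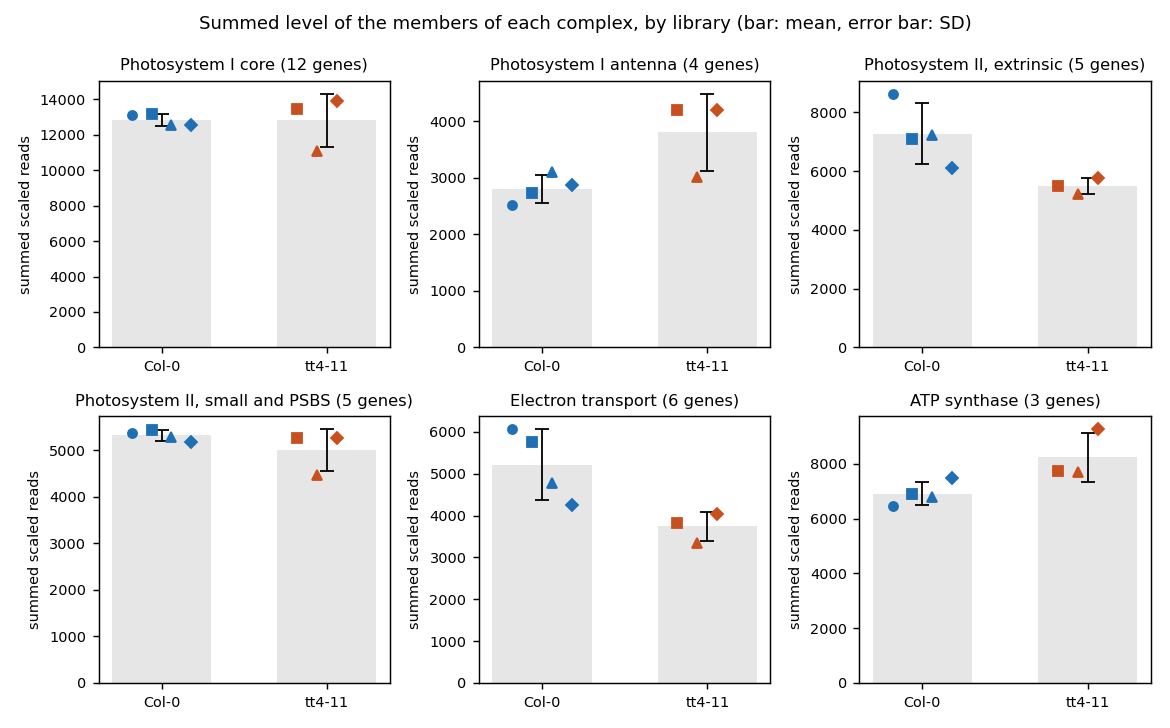
Each panel gives the summed scaled reads of the members of 1 complex, with points for libraries (blue Col-0, orange tt4-11, symbol by replicate number as in the plot of members by library), bars for group means and error bars for the SD. The sums of the extrinsic photosystem II genes and of the electron carriers are lower in all 3 tt4-11 libraries. The ATP synthase sum is higher in them, and the photosystem I core sum is alike in both groups. PSBO1, PETE2 and ATPC1 weigh most in the extrinsic, carrier and ATP synthase sums.

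Gene pairs for the same protein could change their balance even where the sum did not, and 7 pairs are described as shares, with no test. The smallest exact two-sided permutation p for 4 against 3 libraries is 0.0571. PSAE1 made up 61.4%, 65.6%, 68.2% and 67.3% of the PSAE reads in the wild type and 77.9%, 75.4% and 78.7% in tt4-11. The shift of 11.7 percentage points was the largest of the 7 and the groups did not overlap. PSAH1 made up 49.8% to 52.0% of the PSAH reads in Col-0 and 44.2% to 46.3% in tt4-11, also without overlap. Among single genes tested, 13.7% had every tt4-11 library above every Col-0 library and 12.9% below. Annotated genes on the opposite strand overlap part of PSAE1, PSAH1 and PSAH2, so the PSAE and PSAH shares are less certain. In the PSBO pair, of which PSBO1 was called and PSBO2 was not, the shares overlapped, with PSBO1 at 76.8% ± 1.37 (SD, n = 4) and 75.8% ± 1.31 (SD, n = 3). PSAD1 went from 78.5% ± 3.34 to 75.3% ± 1.32, PETE1 from 4.76% ± 1.15 to 6.66% ± 0.871 and FNR1 from 60.7% ± 9.08 to 62.3% ± 9.31, all with overlapping groups. PSBQ1, on 1 to 3 reads per library, made up at most 0.359% in each library. PETE1, FNR1, FNR2, PSBQ1 and PSBQ2 have more than 1 annotated model, which limits the shares of their pairs.

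**Figure D3:**
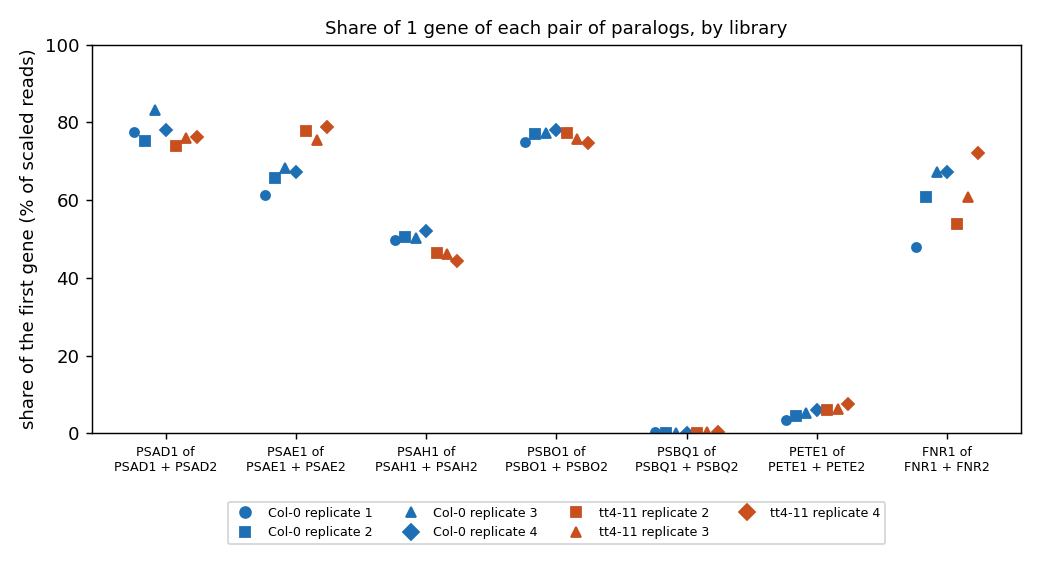
For 7 pairs of genes coding for the same protein, each point is the share of the first gene in the scaled reads of the pair, in percent, in 1 library (blue Col-0, orange tt4-11). The 3 tt4-11 points lie above all Col-0 points for PSAE1 and below them for PSAH1.

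Single libraries weighed on these results. In tt4-11, replicate 3 was the lowest of the 3 libraries in 25 of the 31 tested members (80.6%), against 33.2% of all genes tested, and the highest in 0. Without it LHCA2 gave 0.08 in place of -0.11. Col-0 replicate 1 was the lowest Col-0 library in 29.8% and the highest in 31.5% of all genes tested, the largest shares of the 4. It was the Col-0 library farthest from tt4-11 in 5 of the 9 called members (55.6%; PSAF, PSAK, PSBO1, PETE2 and ATPC1), against 56.6% of all 1811 called genes. All 9 called members kept their call without it, with changes from -0.67 (PSAF) to 0.73 (LHCA4).

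The members are short, and short transcripts tended to be lower in tt4-11. Of the 35, 24 have an annotated transcript no longer than 1295 nucleotides, which places them in the shortest of 4 equal length classes of the genes tested. The longest member has 1757 nucleotides, below the median of 1790 of the genes tested. The median change of all genes tested was -0.17 in the shortest class and 0.15 in the longest, from 2401 nucleotides. Members' GC content was 38.8% to 47.9%, with a median of 42.7% in those tested against 41.5% in all genes tested. PSAF, PETE2, PSAK, LHCA4 and ATPC1 kept their calls with the length trend removed and with length and GC trends removed. PSAF then gave -0.64 and -0.52, PETE2 -0.49 and -0.59, PSAK 0.84 and 0.87, LHCA4 0.86 and 0.98, and ATPC1 0.54 and 0.51. The part of transcript length and GC content in the other calls was not tested further.

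**Figure D4:**
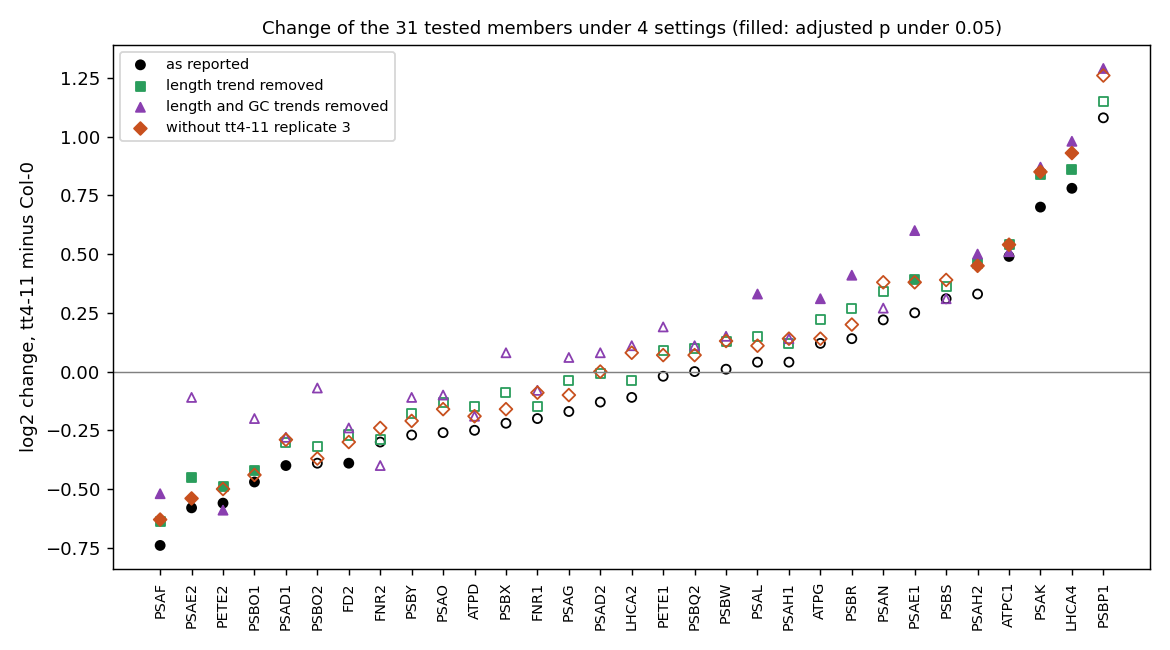
The change of each tested member, tt4-11 minus Col-0 on the log2 scale, as reported (black circles), with the length trend removed (green squares), with length and GC trends removed (purple triangles) and without tt4-11 replicate 3 (orange diamonds), where filled symbols passed an adjusted p of 0.05. Members on the left, PSAF first, are lower and those on the right higher. The purple triangles of many middle members stand above the black circles, with 9 called higher against 3 as reported.

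Beyond the members, 48 other nuclear genes of photosynthetic electron transport were listed, of which 45 were in the table and 37 were tested. By limma 6 of the 37 rose, against 7.07% of all genes tested, and 2 of the 37 fell, against 6.55%. The largest change was in SIG5, a sigma factor that directs the plastid RNA polymerase and is known to respond to blue light and stress. It stood at 119, 81.7, 101 and 88.0 in the wild type and at 202, 238 and 245 in tt4-11 (1.23, SE 0.14, limma adjusted p = 5.32e-05). The other regulators split: GLK2, an activator of nuclear photosynthesis genes, rose from 288 ± 44.7 (SD, n = 4) to 394 ± 27.4 (SD, n = 3; 0.46, SE 0.13, limma adjusted p = 0.0231), while the sigma factor gene SIG4 fell from 101 ± 14.4 to 69.7 ± 8.97 (-0.52, SE 0.16, limma adjusted p = 0.0365). SIG1, SIG2, SIG3 and SIG6 were not called.

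Of 6 tested genes of cyclic flow and the NDH complex 2 rose and 0 fell, and of 5 tested kinase and repair genes 2 rose and 0 fell. Of all genes tested 7.07% rose and 6.55% fell, and these sub-lists are small. PGR5, needed for cyclic electron flow around photosystem I, went from 96.2 ± 22.5 (SD, n = 4) to 168 ± 8.59 (SD, n = 3), a rise of 0.82 (SE 0.17, limma adjusted p = 0.00448). TROL, the thylakoid anchor of ferredoxin-NADP reductase, rose from 1139 ± 87.3 to 1598 ± 93.6 (0.49, SE 0.10, limma adjusted p = 0.00413). STN7, the kinase of state transitions, rose by 0.43 (SE 0.12, limma adjusted p = 0.0239), and FTSH2, a protease subunit that clears damaged photosystem II protein, by 0.37 (SE 0.10, limma adjusted p = 0.0236). The genes of these sub-lists that were not called gave -0.27 (NDHL), -0.22 (NDHO), 0.10 (NDHM) and 0.71 (PPL2, SE 0.34), and 0.17 (STN8), 0.02 (FTSH5) and 0.17 (DEG1). Of 9 assembly factors tested 0 rose and 1 fell, CGL160, which helps to assemble ATP synthase (104 ± 25.6 to 64.1 ± 13.3; -0.68, SE 0.20, limma adjusted p = 0.0346). Among 10 minor subunits and carrier isoforms 0 were called by limma. The lowest p there belonged to FD1, a second leaf ferredoxin gene (-0.35, SE 0.12, limma adjusted p = 0.0576), and PSB33, a photosystem II protein (-0.29, SE 0.10, limma adjusted p = 0.0589). SIG5, GLK2, PGR5, TROL and FTSH2 have more than 1 annotated model. So of the 6 rises only STN7 was in the set of genes with 1 annotated model, where 1 pathway gene was called higher. The 6 rises came to 3 without tt4-11 replicate 2 and to 3 without tt4-11 replicate 4. Both falls were lost without Col-0 replicate 3 or tt4-11 replicate 3, and with the length trend removed. The falls came to 1 without Col-0 replicate 2, tt4-11 replicate 2 or tt4-11 replicate 4.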

How the data were processed

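Each of 23052 deposited lines gives the values of 1 transcript model in the 7 libraries, and 1 repeated line was dropped. Per the submitters' processing notes, TopHat2, HISAT2, HTSeq and DESeq2 were used. Their versions, order and genome build are not stated in what was used here. The deposited values of Col-0 replicate 4 are counts. Those of the other 6 libraries are a signal, counts that the authors scaled: each is a whole multiple of a step of 0.921 to 0.970, and dividing by it gave whole reads in 100% of values (tolerance 0.01). Models were summed by locus. limma 3.58.1 with trend was fitted to log2(scaled reads + 1) after filterByExpr (minimum count 10), with no covariate. The design named limma for scaled columns and edgeR for unscaled ones; the main test was limma, since 6 of 7 columns are scaled. edgeR 4.0.16 and DESeq2 1.42.0 on recovered reads, TMM factors, filters, a pseudocount of 0.1, an adjusted p of 0.01, libraries left out, the replicate number as a block, and length and GC trends were alternatives; edgeR called 1871 genes and limma 1811. Genes with 1 annotated model alone were added after seeing the data. Deposited log2 fold changes and adjusted p-values of the authors served as 1 further alternative. Positions, transcripts and promoter windows come from RefSeq's TAIR10.1 (20838 of 21184 genes matched to a transcript). Rules for named genes: each called member and the most abundant gene of each complex in every library, both genes of a pair, and from the pathway list up to 4 called genes per sub-list, or the 2 of lowest p. Members and lists were chosen with earlier results of these data known.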

Additional observations from a re-analysis of the deposited data

Results flagged for a closer look

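Of 48 sets of 4 Col-0 values examined (35 members, 6 complex sums and 7 gene pairs), 2 had a single library far from the rest, where chance gives about 1 in 20. Both are the same low reading: PSBQ1 stood at 2.87 scaled reads in Col-0 replicate 1, against 0.961 to 1.00 in the other 3, and its share of the PSBQ pair was 0.359% there, against 0.119% to 0.122%. The values rest on 1 to 3 reads per library, so the difference was not detectable at this depth.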

How the results depend on the processing

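PSAF, PSAK and LHCA4 kept their calls in every fit run. Against 3 members higher and 6 lower as reported, edgeR gave 5 and 6, DESeq2 4 and 7, the length trend removed 5 and 4, length and GC trends removed 9 and 2, and an adjusted p of 0.01 gave 2 and 2. Leaving out 1 library at a time gave 2 to 4 higher and 2 to 8 lower, with the fewest lower without tt4-11 replicate 3. Against 6 pathway genes higher, 3 were higher at an adjusted p of 0.01 and 3 to 6 without 1 library. Among genes with 1 annotated model, an alternative chosen after seeing the data, with fewer genes tested, 1 was higher. That set leaves out SIG5, GLK2, PGR5, TROL and FTSH2, so their calls could not appear in it. Against 2 pathway genes lower, DESeq2 gave 1, the length trend removed 0, length and GC trends removed 1, an adjusted p of 0.01 gave 0, and leaving out 1 library 0 to 2. As a mean log2 change of members in place of the ratio of sums, the antenna genes gave 0.24 (0.44 from sums), the extrinsic photosystem II genes 0.06 (-0.40) and the ATP synthase genes 0.12 (0.25). The cause of these shifts was not tested, beyond the smaller sets that some alternatives use. With the replicate block, 4 members were higher and 8 lower, and all 9 calls remained. Deviations of same-numbered libraries correlated at 0.0584, 0.0166 and 0.0644. For tt4-11 replicates 2 and 4 that was the highest value with any Col-0 library, while tt4-11 replicate 3 correlated best with Col-0 replicate 1 (0.104). All these values were low, and the numbers were not taken to pair samples. Members on fewer than 20 reads per library, PSBP1 among them, are limited by depth.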
